A study of Mus musculus with 19 samples.

Results

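The EGF receptor family is described here through 10 genes measured in the cornea and the conjunctiva of calorie-restricted and freely fed mice. They were taken by symbol from the 24552 genes of each table: the 3 receptors Egfr, Erbb2 and Erbb3, the 6 ligands Hbegf, Areg, Ereg, Btc, Tgfa and Egf, and the inhibitor Errfi1. All 10 averaged 10 or more normalized counts in both tissues and entered every test. The samples came from C57BL/6 mice (by the study's methods C57BL/6 J, all female), with no transgene or mutation named. Their titles carry the codes 6M and 50W, which the labels do not spell out. One group was fed ad libitum (AL) and the other was kept on calorie restriction (CR), reached in steps and given as a daily meal before the dark phase. Each diet had 5 cornea libraries, and the conjunctiva had 4 from AL and 5 from CR mice. By the methods, "cornea" was epithelium scraped from its surface and the conjunctiva was excised whole. Several tissues were taken from each mouse, and the labels do not say which cornea and conjunctiva libraries shared an animal.

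Ligands of this family are made as proteins anchored in the cell membrane and are released by metalloproteases of the ADAM family, among which ADAM17 is the best known. A released ligand brings receptors together in pairs, whose kinase domains then phosphorylate each other and start the RAS-MAPK and PI3K-AKT cascades. ERBB2 binds no ligand of its own and ERBB3 has little kinase activity, so both act mainly as partners. In the cornea the pathway is best known for driving the migration and division of epithelial cells when a wound closes.

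Libraries held between 10354125 and 14681223 counted reads. Keratin 12 and the 4 other markers of corneal epithelium summed to between 565125 and 666787 normalized counts (counts divided by a size factor for the library) in the AL corneas. The 4 conjunctival epithelium markers, among them keratins 4 and 13, summed to between 33116 and 84637 over the 9 conjunctivas, which also held skeletal muscle markers (10518 to 104562). The 4 hemoglobin genes were at 0 in every library. Macrophage markers, which were apart between diets in both tissues, and the share of listed genes with 0 reads, a sign of library quality whose ranges overlapped, stand beside the results. The 7 macrophage markers (Adgre1, Csf1r, Cd68, C1qa, C1qb, C1qc and Mrc1) summed to 316 to 404 normalized counts in AL and 189 to 299 in CR corneas, and to 2984 to 3938 in AL and 2046 to 2982 in CR conjunctivas. The share of genes at 0 had a median of 39.1% in AL and 45.6% in CR corneas, and of 34.9% and 37.1% in the conjunctivas. Cornea CR library 7 stood apart, with the highest share of genes at 0 (47.6%) and the highest Hbegf, Areg, Ereg and Errfi1 of the 10 corneas. The cornea log2 changes of the 10 genes and their ratios are given with and without it where they are described. In whole tissue, fewer cells of a type and less RNA per cell cannot be told apart.

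Hbegf, the ligand that also binds heparan sulfate and is induced early in wounded epithelium, was the leading ligand transcript in both tissues. On reads divided by exon length, it made up a median of 79.0% of the 6 ligands in AL corneas and 56.9% in AL conjunctivas. Areg, which encodes amphiregulin, a ligand of low affinity for the receptor, came next in the conjunctiva with 27.6% and was level with Ereg in the cornea, at 6.89% against 6.64%. Btc, which encodes betacellulin, held 5.61% and 5.21%. Tgfa, which encodes transforming growth factor alpha, held 0.614% in AL corneas and 1.47% in AL conjunctivas, and Egf, the founding ligand of the family, 0.359% and 0.307%. These shares assume reads spread over the whole transcript, and the labels and the methods name library kits that differ in this. On plain reads, Hbegf led as well, with 85.1% in AL corneas and 72.7% in AL conjunctivas, while Areg (1.85%) came after Ereg (6.13%) and Btc (5.45%) in AL corneas and held 8.82% in AL conjunctivas, against 8.61% for Ereg. Among the receptors, on reads per exon length, Egfr held a median of 59.6% in AL corneas, Erbb2 36.6% and Erbb3 4.81%, and on plain reads 76.0%, 21.5% and 3.19%.

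**Figure D1:**
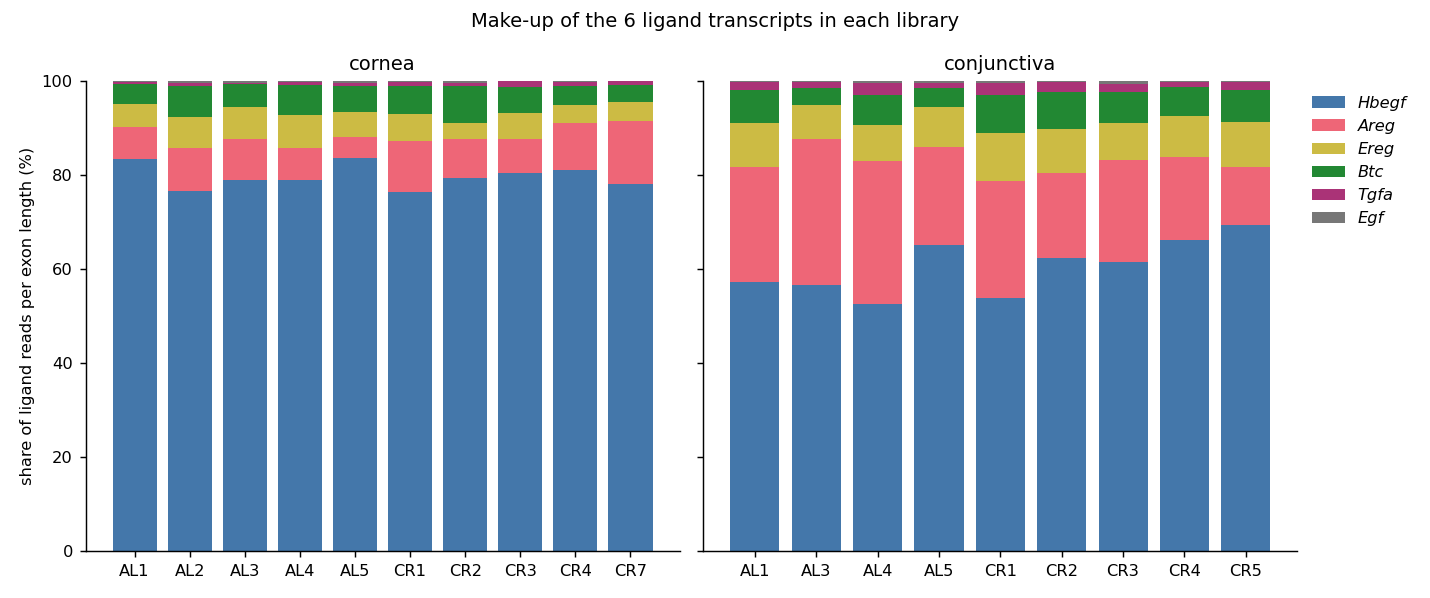
Share of each ligand in the 6 ligand transcripts (y axis, percent of reads per exon length) in every library (x axis, named by diet and replicate number). Hbegf is the largest part of every bar, and the Areg part is larger in AL conjunctivas (median 27.6%) than in AL corneas (6.89%).

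Levels in the tissues were set side by side as RPM (counted reads scaled to 1 total per library, leaving out the ribosomal precursor Rn45s), as a description, since each tissue was scaled in its own table. In AL mice, Hbegf ran from 526 to 623 RPM in corneas, against 182 to 317 in conjunctivas, and Btc from 29.2 to 42.4, against 18.4 to 29.1. For both ligands every AL cornea lay above every AL conjunctiva. Areg was ordered the other way, with 7.87 to 16.0 RPM in AL corneas and 25.3 to 42.8 in AL conjunctivas, as was Tgfa with 3.0 to 6.08 and 7.23 to 11.3. The ranges of the other 6 genes overlapped, and of all 11929 genes tested in both tissues 36.8% were apart in AL. In CR mice the ranges of all 4 ligands overlapped between tissues: Areg, for example, ran from 11.1 to 39.3 RPM in corneas, against 14.3 to 20.2 in conjunctivas. Of the 10 genes only Errfi1, whose ranges overlapped in AL, was apart in CR, at 47.0 to 81.3 RPM in corneas, against 23.6 to 45.8 in conjunctivas. Over all genes 25.4% were.

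The main comparison asked which transcripts differed between CR and AL mice within a tissue. With limma's moderated test and Benjamini-Hochberg adjustment over all genes, 0 of the 10 genes were called in the cornea and 0 in the conjunctiva, at an adjusted p under 0.05 and a fold change over 1.5, and limma-voom on the recovered reads also called 0 in both. Over all genes tested 1.22% were called in corneas, against 0.359% in conjunctivas. At an unadjusted p under 0.05 there were 4 of 10 genes in the cornea (Ereg and Egf with lower means in CR, Tgfa and Errfi1 with higher means), beside 18.1% of all genes tested, and 1 of 10 in the conjunctiva (Areg, with a lower mean in CR), beside 9.4%. Diets were fully apart (every library of one diet above every library of the other) for 0 of the 10 genes in corneas, where 3.97% of all genes were, and for 1 in conjunctivas, again Areg, where 3.87% were. The 10 genes had a median log2 change of 0.06 in corneas, against -0.03 for all genes tested, and of -0.07 in conjunctivas, against -0.02.

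**Figure D2:**
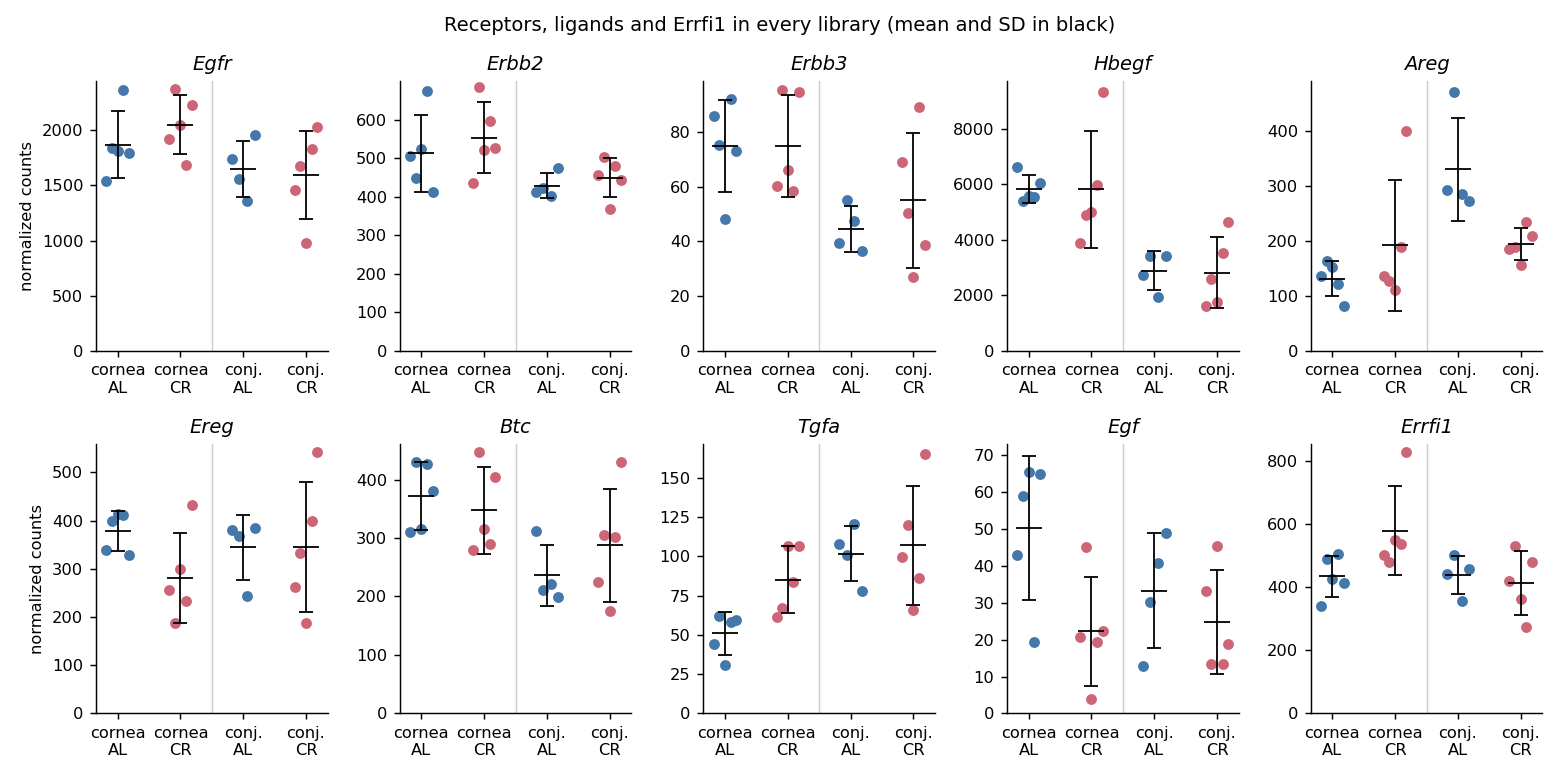
Normalized counts (y axis, from 0) of the 10 genes in each library, by tissue and diet, with the mean and SD in black and levels comparable within a tissue only. The CR conjunctivas lie below the AL conjunctivas for Areg, and 1 CR cornea stands above the rest for Areg, Hbegf and Errfi1.

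Areg gave the clearest separation. In the conjunctiva the 4 AL libraries held 292, 471, 286 and 273 normalized counts, and the 5 CR libraries 186, 188, 155, 235 and 208. All 5 CR values were below all AL values. The mean was 331 ± 94.1 (SD, n = 4) in AL and 195 ± 29.3 (n = 5) in CR, a log2 change of -0.74 ± 0.20 (SE) with an adjusted p = 0.171 from limma. Without AL library 3, which holds the highest value, the log2 change was -0.55 (adjusted p = 0.436). In the same libraries the macrophage marker sums did not overlap between diets, and fibroblast marker sums ran from 39250 to 58882 in AL and from 25864 to 51295 in CR. Their part in the lower Areg of CR conjunctivas was not tested. In the cornea the AL libraries held 136, 164, 152, 121 and 81.4 normalized counts of Areg and the CR libraries 137, 126, 111, 189 and 399. There 3 of the 5 CR values lay within the AL range, and the higher CR mean came from library 7: the log2 change was 0.42 ± 0.31 with it (adjusted p = 0.488) and 0.11 without it (adjusted p = 0.843). Without AL library 5, the lowest, it was 0.26, and with the share of genes at 0 in the model 0.31.

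Areg is on chromosome 5 (chr5:91139599-91148432, forward strand, GRCm38.p6, 6 merged exons), in a stretch that also holds Ereg (chr5:91074617-91093649), Btc (chr5:91357261-91402994, reverse strand) and Epgn (chr5:91027517-91035212). In the conjunctiva these neighbours had log2 changes of -0.06 ± 0.26 (Ereg), 0.24 ± 0.24 (Btc) and 0.19 ± 1.03 (Epgn), and their difference from Areg was not tested. The 250 bases before the start of Areg are shown because Areg was the gene whose diets did not overlap. They are RefSeq's, 5′ to 3′ on the forward strand at chr5:91139349-91139598 (GRCm38.p6), with 2 motifs in capitals: the cyclic AMP response element TGACGTCA, 61 bases before the start, and the TATA box TATAAA, 31 bases before it.
Areg: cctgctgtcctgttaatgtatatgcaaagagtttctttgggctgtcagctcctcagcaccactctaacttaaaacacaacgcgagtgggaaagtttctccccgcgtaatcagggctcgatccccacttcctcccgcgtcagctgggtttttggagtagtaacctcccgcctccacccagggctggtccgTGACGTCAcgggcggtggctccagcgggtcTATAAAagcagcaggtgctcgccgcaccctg
Motifs were searched on both strands in this window, and TGACGTCA was found in 1.62% and TATAAA in 13.0% of 27025 promoters. Of the 10 genes, 7 had a promoter in the table, and among these 7 only Areg held either. The AP-1 element (TGACTCA or TGAGTCA, in 4.43% of promoters) and the E-box CACGTG (6.05%) were in none of the 7. These are matches of letters and say nothing of which factors bind.

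Ereg, which encodes epiregulin, had a lower mean in CR corneas. Its AL libraries held 339, 399, 414, 412 and 329 normalized counts, and its CR libraries 255, 188, 300.0, 233 and 432. Of the CR values 4 were below all AL values and library 7 was above them, so the groups overlapped. The log2 change was -0.48 ± 0.19 (adjusted p = 0.197 with limma). Without library 7 it was -0.64 with an adjusted p = 0.0493, which passes both thresholds. In the conjunctiva the mean was 344 in AL and 345 in CR, with CR libraries from 188 to 542. The log2 change there was -0.06, and -0.43 with the share of genes at 0 in the model (adjusted p = 0.495 with limma). Exons of Ereg share 141 bases with an antisense gene, and whether the counting used strand is unknown.

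Tgfa, made by many epithelia, went the other way in the cornea. Its values were 44.0, 62.3, 30.6, 58.4 and 59.7 normalized counts in AL and 61.3, 66.9, 107, 83.8 and 107 in CR. In CR 4 values were above all AL values and the lowest lay within the AL range. The log2 change was 0.74 ± 0.29 (adjusted p = 0.195 with limma) and 0.65 without library 7. With the share of genes at 0 in the model it was 0.46 (adjusted p = 0.676). In the conjunctiva Tgfa had means of 102 and 107 with a log2 change of 0.02, whose 95% interval ran from -0.59 to 0.63. Its exons share 118 bases with an unconfirmed gene model on the other strand.

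Egf, the lowest of the 6 ligands per exon length, rested on 5 to 63 reads per cornea library. AL corneas held 42.9, 59.0, 65.5, 19.5 and 64.9 normalized counts and CR corneas 20.8, 45.2, 3.79, 19.4 and 22.3. In CR 2 libraries lay below all AL libraries and the other 3 within their range. The log2 change was -1.34 ± 0.55 (adjusted p = 0.209 with limma), an interval of -2.48 to -0.19. It was -0.85 without CR library 3, which held 5 reads (adjusted p = 0.407), -1.42 without library 7, and -0.94 with the share of genes at 0 in the model. Egf is made in quantity by secretory glands, and the 6 lacrimal gland markers summed to 80.5 to 1601 normalized counts in AL and 56.7 to 395 in CR corneas, with overlapping ranges. Of these 6 only Car6 averaged 10 or more normalized counts in the cornea. In the conjunctiva Egf had means of 33.3 and 24.8 (log2 change -0.43 ± 0.55, and -0.81 to -0.19 when a library was left out). Exons of Egf share 1107 bases with 2 antisense genes, the most of the 10.

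Hbegf did not separate the diets in either tissue. The AL corneas held 6613, 5386, 5562, 5527 and 6059 normalized counts and the CR corneas 3877, 4906, 4987, 5976 and 9332. In CR 3 corneas were below the whole AL range and library 7 was above it, and the means were 5829 ± 507 and 5815 ± 2101 (SD, n = 5 each). The log2 change was -0.07 ± 0.18 with library 7 and -0.25 without it. Conjunctivas held 2717, 3419, 1949 and 3429 in AL and 1607, 2585, 1741, 3509 and 4644 in CR, again with CR values on both sides of the AL range. Btc ran from 310.2 to 430.4 in AL and from 279 to 448 in CR corneas, and from 199 to 313 and from 176 to 430.0 in the conjunctivas, and its log2 changes were -0.11 (-0.17 without library 7) and 0.24. The 6 ligands summed to a median of 6565 normalized counts in AL and 5824 in CR corneas, and of 4118 and 3544 in the conjunctivas, with overlapping ranges in both tissues.

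The 3 receptors differed by less than the spread between libraries. Egfr, which binds all 6 ligands, had 1870 ± 301 normalized counts in AL and 2051 ± 270.0 in CR corneas (log2 change 0.14, 95% interval -0.12 to 0.40), and 1652 ± 255 and 1593 ± 403 in the conjunctivas (-0.08, -0.49 to 0.32). Erbb2 had log2 changes of 0.11 (-0.21 to 0.43) and 0.07 (-0.25 to 0.38). Erbb3 was the rarest receptor, at 48.0 to 95.2 normalized counts over all corneas and 27.0 to 89.1 over all conjunctivas, and its intervals of -0.56 to 0.56 and -0.63 to 1.02 leave room for changes of either sign. Without library 7 the cornea log2 changes of Egfr, Erbb2 and Erbb3 were 0.10, 0.13 and -0.09. Adjusted p-values of the receptors from limma were 0.587 or higher in corneas, and 0.914 or higher in conjunctivas. The relation of Egfr to the share of genes at 0 across libraries did not pass adjustment, with Pearson's r = 0.794 in the 10 corneas (Spearman's rho = 0.685, permutation p = 0.00838 and 0.0348, adjusted 0.155 and 0.312) and 0.789 in the 9 conjunctivas (rho = 0.883, exact p = 0.00847 and 0.00308, adjusted 0.155 and 0.0846). Without the 2 libraries farthest from the median of Egfr, r was 0.728 and 0.775.

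Errfi1 encodes MIG6, which is induced by receptor signalling and binds the kinase domain of EGFR to switch it off. The AL corneas held 339, 488, 426, 504 and 414 normalized counts and the CR corneas 502, 479.6, 549, 536 and 827. In CR 3 values were above all AL values, and the lowest CR value exceeded 3 of the 5 AL values. The log2 change was 0.40 ± 0.16 (adjusted p = 0.200 with limma) and 0.26 without library 7 (adjusted p = 0.348). Adding the share of genes at 0 to the model lowered it to 0.20. In the conjunctiva the log2 change was -0.11 ± 0.19, with 355 to 500.5 normalized counts in AL and 274 to 530.2 in CR.

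**Figure D3:**
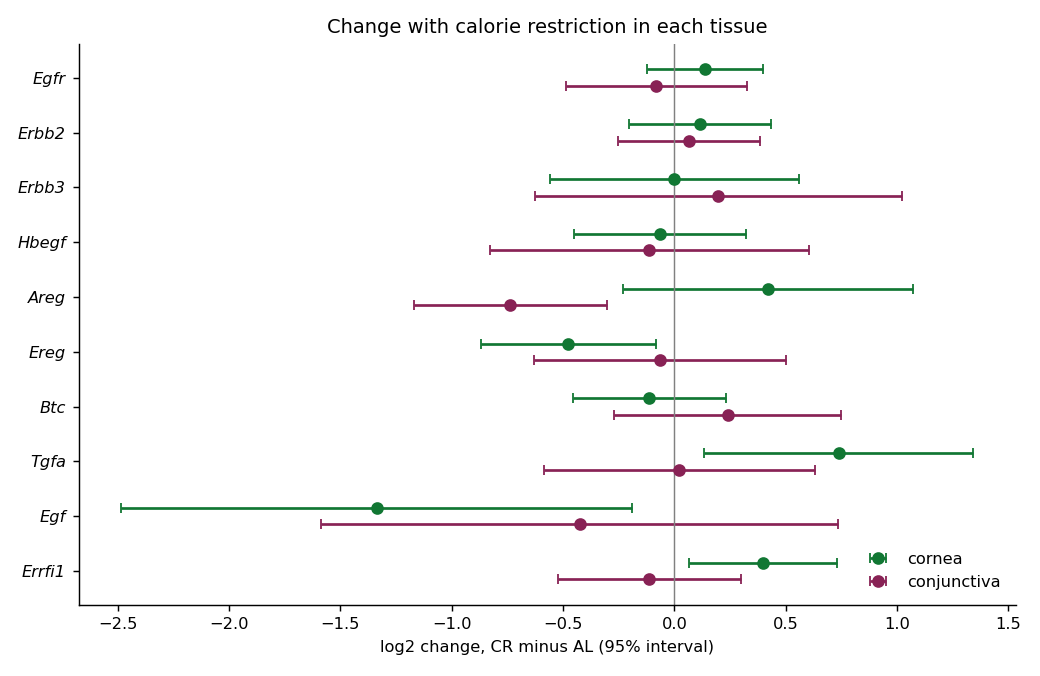
Log2 change with calorie restriction (x axis, CR minus AL, with 95% intervals that are not adjusted for the number of genes) of the 10 genes in the cornea and the conjunctiva. Areg has an interval of -0.23 to 1.07 in corneas and one of -1.17 to -0.30 in conjunctivas.

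The change with CR was then compared between the tissues gene by gene, with the libraries of the tissues treated as independent. Libraries from the same mouse would break this, and which shared an animal is unknown. Same-numbered cornea and conjunctiva libraries of a diet had correlations of -0.420 (AL 4) to 0.144 (AL 3), which do not settle it. Of the 10 genes, 0 passed an adjusted p under 0.05 (0.0168% of 11929 genes did), and 2 had an unadjusted p under 0.05 (7.48% of all genes). For Areg the change in the conjunctiva was lower than that in the cornea by 1.16 on the log2 scale (difference -1.16 ± 0.37, 95% interval -1.91 to -0.40, adjusted p = 0.414 with limma's fits). For Errfi1 the difference was -0.51 ± 0.25 (adjusted p = 0.668). Without cornea CR library 7 these were -0.85 and -0.38. The intervals of the other 8 genes included 0.

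Ratios within a library do not depend on its scaling. These were compared for 3 pairs of genes in each tissue by exact two-sided permutation tests. The lowest p such a test could reach was 0.00794 in the corneas, with 5 against 5 libraries. It was higher in the conjunctivas, with 4 against 5. The ratio of Errfi1, the inhibitor, to its receptor Egfr had a mean log2 of -2.10 ± 0.12 (SD) in AL and -1.84 ± 0.33 in CR corneas (exact p = 0.143, adjusted over the 6 tests 0.286), and -1.91 and -1.94 in the conjunctivas (exact p = 0.984). Hbegf over Areg, both of them inducible ligands, shifted by -0.48 in the cornea (exact p = 0.103) and by 0.62 in the conjunctiva (exact p = 0.0794), with an adjusted p = 0.286 for both. Erbb3 over Erbb2, receptors that pair with each other, shifted by -0.11 and 0.13 (exact p = 0.635 and 0.698). Without cornea CR library 7 the 3 cornea shifts were 0.16, -0.37 and -0.22, and without cornea AL library 5 that of Hbegf over Areg was -0.31. None of the 6 ratios passed.

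Across libraries, 45 pairs of the genes and the 10 genes against the share of genes at 0 were related in each tissue, 110 relations in all. Only 2 passed adjustment, both in the conjunctiva. Ereg rose and fell with Egfr (r = 0.940, rho = 0.967, exact p = 8.0e-05 and 1.7e-04, adjusted 0.00879 and 0.0182), and with Hbegf (r = 0.926, rho = 0.933, exact p = 4.7e-04 and 7.5e-04, adjusted 0.0259 and 0.0412). Without the 2 libraries farthest from the median of Egfr and of Ereg, r was 0.862 and 0.942. After centring each diet on its own mean r was 0.941 and 0.926. Ereg in the conjunctiva and the share of genes at 0 did not pass adjustment (r = 0.772, rho = 0.850, exact p = 0.0141 and 0.00607, adjusted 0.160 and 0.134). Centred by diet, r with that share in the conjunctiva was 0.893 for Ereg, 0.946 for Egfr and 0.806 for Hbegf. The part of that share in the 2 relations was not tested. In the 10 corneas the same relations had r = -0.05 and 0.51, with permutation p = 0.893 and 0.136 (adjusted 0.939 and 0.443).

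**Figure D4:**
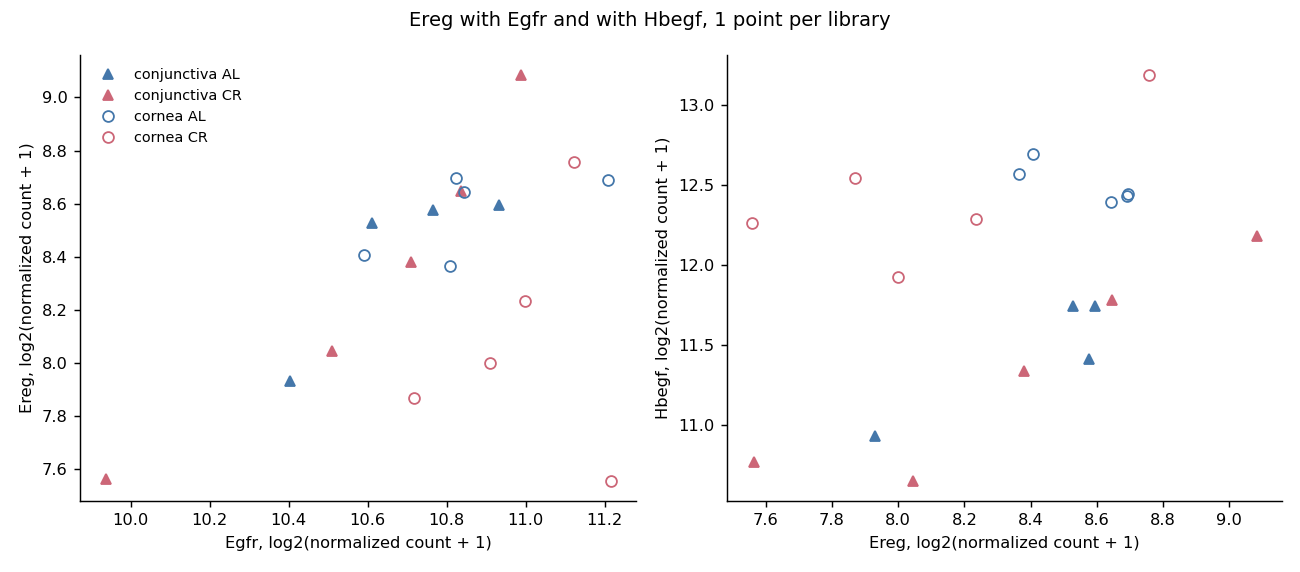
Ereg against Egfr on the x axis (left), and Hbegf against Ereg on the x axis (right), all as log2(normalized count + 1), with 1 point per library. The 9 conjunctivas (triangles) rise along both x axes (r = 0.940 and 0.926), and the 10 corneas (circles) lie scattered (r = -0.05 and 0.51).

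The genes most like Egfr over the 10 corneas, among those averaging 100 or more normalized counts, were Copb1, a subunit of the coat of Golgi vesicles (r = 0.944), Actg1, a cytoplasmic actin (0.940), and Myof, a membrane repair protein (0.936). Over the 9 conjunctivas they were Senp1 (0.964), Col4a5 (0.961) and Fam102b (0.952). For Errfi1 they were Selenoi (0.976), Anxa1 (0.958) and Tiparp (0.957) in the cornea, and Map3k7 (0.974), Gnptab (0.966) and Rnmt (0.958) in the conjunctiva. These are the highest of many correlations over few libraries and are given as a description.

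The wider pathway was read from 6 lists. Over all genes tested, the median log2 change was -0.03 in corneas and -0.02 in conjunctivas. Of all genes tested 1.22% and 0.359% were called, and the diets were fully apart for 3.97% and 3.87%. The other ligands and ERBB4, with 3 of 6 genes tested in corneas and 4 in conjunctivas, had median log2 changes of 0.52 and 0.50, and 0 were called. In conjunctivas Erbb4 (0 to 116 normalized counts), Epgn (0 to 24.7) and Nrg1 (6.73 to 60.4) rested on few reads. Their log2 changes had SEs of 1.20, 1.03 and 0.68, so the median there is loose. Called genes in the cornea were Ccnd1, Timp3 and Adam9, all higher in CR, and none was called in the conjunctiva. Ccnd1 encodes cyclin D1, which carries growth factor signals into the cell cycle. It had 8189 ± 823 normalized counts in AL and 14846 ± 1802 in CR corneas, with no overlap, and a log2 change of 0.86 ± 0.11 (adjusted p = 2.5e-04 with limma). In the conjunctiva it had 6572 ± 936 and 10461 ± 2037, also without overlap, and a log2 change of 0.66 ± 0.16 (adjusted p = 0.112, and 0.0304 without CR library 3). Of the 11 genes tested in the cornea among 13 that respond to ERK, Ccnd1 was the only one called, and the median log2 change was 0.36. Among these 11, 3 had an unadjusted p under 0.05, beside 18.1% of all genes tested. Of the 12 tested in the conjunctiva 0 were called, and the median was -0.21.

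Ligand shedding held the other called genes. Timp3, an inhibitor of ADAM17, had 645 ± 47.2 normalized counts in AL and 1032 ± 226 in CR corneas, a log2 change of 0.65 ± 0.14 (adjusted p = 0.0292 with limma). Its diets were only just apart, with 708.1 normalized counts in the lowest CR library and 707.3 in the highest AL library. Adam17, the main sheddase, was lower in CR corneas, with 1087 ± 108 and 770.2 ± 87.4, no overlap, and a log2 change of -0.50 ± 0.12 (adjusted p = 0.041), which passes the test but not the fold threshold. Adam9, a related metalloprotease, had 49.4 ± 14.7 and 133 ± 53.4 with overlapping libraries and a log2 change of 1.36 ± 0.33 (adjusted p = 0.0445). These calls were close to the threshold. Leaving out 1 library gave adjusted p-values up to 0.0898 for Timp3 (over 0.05 without AL 1, 2, 3 or 5 or CR 2 or 3), up to 0.129 for Adam17 (without AL 1, 2, 3 or 5 or CR 2, 3 or 7) and up to 0.140 for Adam9 (without any of these or CR 4). With the share of genes at 0 in the model they were 0.113, 0.208 and 0.313. Without a filter Adam17 and Adam9 had 0.0644 and 0.0699, and with voom 0.0549 and 0.0811. Without CR 7 Timp3 had an adjusted p = 0.0366, and the log2 changes of Adam17 and Adam9 were -0.42 and 1.18. In the conjunctiva Adam17 had a log2 change of -0.36 ± 0.16 (adjusted p = 0.501). Adam9, higher in CR corneas, had -0.36 ± 0.24 in the conjunctiva (adjusted p = 0.686), and Timp3 had 0.11 ± 0.19 (adjusted p = 0.907). Of the 7 shedding genes tested in each tissue, the median log2 change was 0.20 in corneas, against -0.06 in conjunctivas.

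Inside the cell, Spred1, an inhibitor of RAS-MAPK signalling, and the GTPase Nras were higher in CR corneas below the fold threshold. Spred1 had 820 ± 72.0 normalized counts in AL and 1195 ± 93.8 in CR (log2 change 0.54 ± 0.11, adjusted p = 0.0163 with limma), and Nras 1144 ± 49.7 and 1613 ± 219 (0.49 ± 0.11, adjusted p = 0.0332). Neither overlapped between diets. Leaving out 1 library gave adjusted p-values up to 0.0639 for Spred1 (over 0.05 without AL 1, 2, 3 or 5 or CR 2) and up to 0.115 for Nras (without these or CR 3), and without CR 7 they were 0.0219 and 0.0194. With the share of genes at 0 in the model Spred1 had 0.0996 and Nras 0.0515, and Nras had 0.0529 without a filter. At an adjusted p under 0.05 alone, 188 of all 12278 genes tested passed in corneas and 50 of 13929 in conjunctivas. Among 15 adaptors and RAS-MAPK genes tested in the cornea, Nras was the only one to pass, and the median log2 change was 0.16. Among the 15 negative regulators tested of 18, only Spred1 passed, with a median of 0.15. The 11 genes of PI3K-AKT signalling and other effectors had a median of 0.20, and 0 passed. In the conjunctiva the medians of these 3 lists were 0.13, 0.01 and 0.08, with 0 genes past the adjusted threshold. Spred1 and Nras had log2 changes of 0.32 and 0.24 there. In the same tissue Nrg2, a neuregulin that binds ERBB3 and ERBB4, had 175 ± 9.12 and 298 ± 60.3 without overlap (log2 change 0.74 ± 0.19, adjusted p = 0.140, and 0.0354 without CR library 3). In corneas Nrg2 had 177 ± 28.1 and 249 ± 19.9, also without overlap (log2 change 0.50 ± 0.16, adjusted p = 0.129 with limma). The others with the smallest p in the conjunctiva were Braf (0.36), Lrig3 (0.32) and Fosl1 (-2.79), with adjusted p-values from 0.409 to 0.501. Fosl1 had 7.27 to 158 normalized counts in AL and 0 to 9.52 in CR, so its change rests on few reads.

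**Figure D5:**
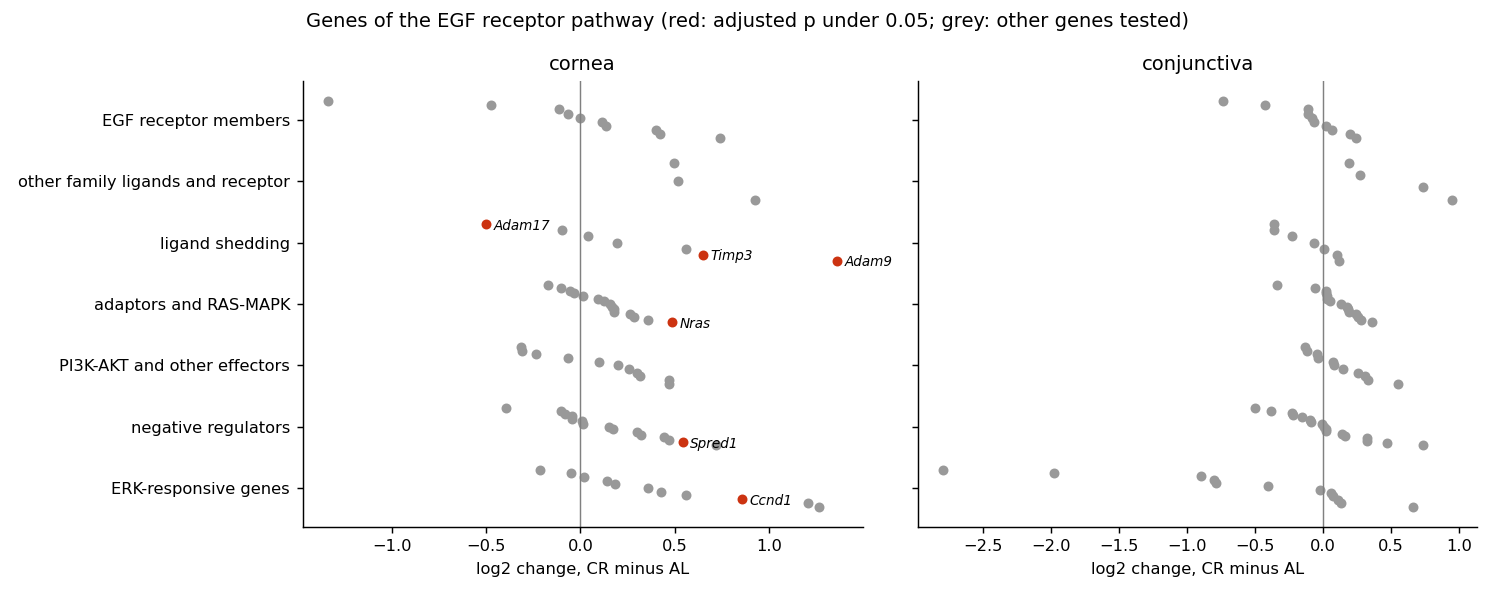
Log2 change with calorie restriction (x axis, CR minus AL) of every tested gene of the 10 described and of the 6 pathway lists (rows), in the cornea (left) and the conjunctiva (right), with genes at an adjusted p under 0.05 in red and named. The 6 red genes are all in the cornea, where Adam17 is the only one below 0.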

How the data were processed

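Bulk RNA sequencing of 10 cornea and 9 conjunctiva libraries was analysed, grouped by tissue and diet from their deposited labels. The authors trimmed single reads with cutadapt, aligned them with STAR, counted per gene with HTSeq and scaled with DESeq2 size factors, without stated versions. The methods name mm10 and the submitters' processing notes GRCm39. The labels name a stranded kit and the methods an oligo(dT)-primed kit, so library type and use of strand are unsettled. The deposited values are log2(normalized count + 1), scaled by the authors in 1 table per tissue. They were turned back into reads, and 100% were whole within 0.01. Of 24557 features, 5 repeated symbols were left out. All columns matched a library (0 unmapped), and no authors' fold changes were used.

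Diets were compared with limma 3.58.1 (statmod 1.5.0, R 4.3.3; intensity trend, robust) on these log2 values (pseudocount 1), among genes averaging 10 or more normalized counts, with Benjamini-Hochberg adjustment over all of them. Genes were called at an adjusted p under 0.05 and a fold change over 1.5, and folds of low genes are understated. The change was compared between tissues by Satterthwaite's test, ratios by exact two-sided permutation, and correlations by exact permutation over 9 and 100000 permutations over 10 libraries. Because the values are log2, no count model was fitted, and voom on the recovered reads was an alternative. Scripts were tested on simulated data. Reads carry no molecular identifiers, so depth limits (a count of 0 allows 3 reads, or 2.27 to 3.37 normalized counts) cover counting error only. The titles number the libraries, and numbers recur across tissues and diets, but nothing says whether a number marks an animal. P-values therefore measure the spread between libraries. Sequences and gene positions are RefSeq's on GRCm38.p6, and merged exons, exon lengths and overlapping genes are GENCODE's on GRCm38.

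The 10 genes, the pathway and marker lists and the tests were chosen with earlier results of these data known. Named from the lists were genes called in a tissue and the 6 with the smallest p per tissue, and for Egfr and Errfi1 the 3 genes most like each. Tried as alternatives were a pseudocount of 0.5 or 10, filtering at 50 or not at all, quantile and TMM scaling, voom, weighted libraries (array weights), replicate numbers as a block, a covariate for the share of genes at 0, other thresholds, and leaving out each library.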

Additional observations from a re-analysis of the deposited data

Results flagged for a closer look

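Of 52 groups of 4 or 5 libraries checked, 3 held a value far from the others, where chance gives about 1 in 20. Errfi1 in cornea CR library 7 was at 827 normalized counts, with the other CR corneas from 480 to 549. Areg in conjunctiva AL library 3 was at 471, with the other AL conjunctivas from 273 to 292. Ereg in conjunctiva AL library 4 was at 243, below the others at 368 to 385.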

How the results depend on the processing

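The number of the 10 genes called stayed at 0 in the conjunctiva and for the difference between tissues under every alternative run, of which those for the difference other than pseudocounts, voom and left-out libraries were chosen after seeing the data. In the cornea it was 1 with array weights (Egf, log2 change -1.63, adjusted p = 0.0457) and 0 to 1 when a library was left out (Ereg without CR library 7). The cause was not tested. Over the whole table calls moved more: 150 in the cornea became 705 with array weights, 46 with the replicate block, 62 with the share of genes at 0, and 53 to 536 with a library left out, and 50 in the conjunctiva became 149 with array weights, 10 with the block, and 26 (without CR 2) to 127 (without CR 3) with a library left out. The labels do not say whether a replicate number links AL and CR libraries. Same-numbered AL and CR libraries had correlations of -0.297 to 0.288 (corneas) or -0.062 to 0.053 (conjunctivas). Only for cornea number 1 (0.288) was the same-numbered CR library the closest to the AL library. So few pairs cannot exclude a shared batch. The block left 0 of the 10 genes called in both tissues, as did the fit without it. Of the pathway genes past the adjusted threshold in the cornea, Ccnd1 remained past it under all alternatives and left-out libraries (adjusted p up to 0.0252), and the other 5 were not past it with the block (0.142 to 0.288), nor were Adam17 and Adam9 with voom, or these and Nras without a filter. The block draws its change only from numbers present under both diets, so cornea AL 5 and CR 7 and conjunctiva CR 2 did not enter it. With these libraries out of the comparison, the Areg change in the cornea went from 0.42 to -0.046. Errfi1 over Egfr there moved from 0.26 to 0.16 and Hbegf over Areg from -0.48 to -0.19. Smaller log2 changes turned sign too. In the cornea these were Egfr (-0.079) and Erbb2 (-0.095) with the share of genes at 0, and Erbb3 with quantile scaling (0.064), TMM scaling (0.0073) and array weights (0.026). In the conjunctiva they were Erbb2 with the share of genes at 0 (-0.019) and Tgfa with array weights (-0.021), the block (-0.035) and the share of genes at 0 (-0.12). That share in the model also moved other conjunctiva log2 changes, without a change of sign. Ereg went from -0.064 to -0.43, Hbegf from -0.11 to -0.49, Egfr from -0.082 to -0.36 and Btc from 0.24 to 0.0032. Adjusted p-values of these genes with limma were then 0.374 or higher. Leaving out 1 library gave ranges across 0 for Egfr (-0.18 to 0.083), Erbb3 (-0.0050 to 0.42), Ereg (-0.25 to 0.13), Errfi1 (-0.21 to 0.026), Hbegf (-0.32 to 0.060) and Tgfa (-0.15 to 0.18) in the conjunctiva, and for Erbb3 (-0.15 to 0.081) and Hbegf (-0.25 to 0.064) in the cornea. The ratio of Errfi1 to Egfr in the conjunctiva ranged from -0.16 to 0.17 and that of Erbb3 to Erbb2 from -0.046 to 0.28. At a mean of at least 50 normalized counts Egf was not tested. Counts of 5 to 63 reads limit Egf in the cornea.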
